A study of Homo sapiens with 24 samples.

Results

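G3BP1 contacts on RNA were mapped by eCLIP in HEK293 cells, an established human embryonic kidney line. In eCLIP, RNA is crosslinked to protein in living cells and trimmed with RNase, the protein is immunoprecipitated (IP), and the RNA that comes with it is sequenced beside an input library made without the enrichment. The series has 24 libraries in 12 groups of 2 for 3 proteins, G3BP1, CAPRIN and SNRNP200, each as IP and input. SNRNP200 was mapped in whole cells and in cytoplasm, each without stress and with stress, which the labels give as 500 µM arsenic. The 4 G3BP1 libraries are an input and an IP library of replicates 1 and 2, and their treatment tag is not applicable, while a protocol field that every sample shares names arsenic. The labels give the same antibody number for all 3 proteins, and they do not say whether replicates were separate cultures, so every p-value here measures only the spread between these samples.

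What was analysed is the authors' deposited table of reproducible enriched windows for G3BP1, all 3242 of its entries out of 329784 in the 6 tables of the series. A window is a stretch of at most 100 bases (median 93) of an annotated gene, given with its summed input and IP reads and with a log2 enrichment of IP over input for the lowest and the highest replicate. The G3BP1 table holds 2 row sets with different GC classes, 1254 windows called in 2 replicates and 1988 windows called in 2 or 3 replicates. They are called the 2-replicate set and the 3-replicate set below, and in the plots the sets with up to 2 and up to 3 replicates. Every enrichment quoted below is a value of the authors' deposited table unless a test is named, except the middle of 3 replicate values. That middle value was worked out here from the lowest, mean and highest values in the table.

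G3BP1 is an RNA-binding protein of the cytoplasm that nucleates stress granules, the cytoplasmic bodies of stalled mRNAs and proteins that appear once initiation of translation is blocked. It works with its paralogue G3BP2, with CAPRIN1, which binds the same groove of G3BP1 as the deubiquitinase USP10, and with UBAP2L. G3BP1 associates with the small ribosomal subunit and is known to bind many RNAs with little sequence preference.

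The sequences that the windows can be shown with here are the first 30 transcribed bases of mRNAs whose start lies inside a window, from the RefSeq promoter table (GRCh38.p14). They are shown for 3 genes found in both sets and for 7 mRNAs of ribosomal proteins or the ribosome-bound RACK1, since a run of pyrimidines is known to open mRNAs of the translation machinery. Of these 7, RPL19 and RPS4X have no run of 8 bases in the RefSeq entry. Capitals mark the longest run of C or T. The genes were chosen after their windows were known.

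TTC3, both sets, chr21:37073254-37073283 (+): acccgCTCCCTCCCgccgtcggctgacgtg
ZNF281, both sets, chr1:200410007-200410036 (-): agtacacgggaggCTTTTaattccattgtg
PARP1, both sets, chr1:226408064-226408093 (-): agcaaTCTatcagggaacggcggtggccgg
RPS12, 2-replicate set, chr6:132814569-132814598 (+): CTCTTTCCCTgccgccgccgagtcgcgcgg
RPLP1, 2-replicate set, chr15:69452818-69452847 (+): CCCCTTTCCTCagctgccgccaaggtgctc
RPL19, 2-replicate set, chr17:39200283-39200312 (+): gcagataatgggaggagccgggCCCgagcg
RACK1, 3-replicate set, chr5:181243877-181243906 (-): CTCTCTTTCactgcaaggcggcggcaggag
RPL24, 3-replicate set, chr3:101686689-101686718 (-): CTTTCTTTTCgccatcttttgtctttccgt
RPL4, 3-replicate set, chr15:66504826-66504855 (-): aagcaCTTCCTTTTCCTgtggcagcagccg
RPS4X, 3-replicate set, chrX:72277219-72277248 (-): aaTTTCTacgcgcaccggaagacggaggtc

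In the 2-replicate set 34 pairs of a gene and a window held a promoter entry's start wholly inside the window. Of these, 6 (17.6%) held a run of at least 8 C or T bases on the transcribed strand. For the 3-replicate set the count was 9 of 26 (34.6%) and for CAPRIN 43 of 227 (18.9%). Where a pair had several entries, the one with the longest run was kept. Among all promoter entries, counted without that choice, it was 3574 of 35116 (10.2%), so the window shares lean upward against this background. The window over the TTC3 start had 107 IP and 1 input reads in the 2-replicate set, with enrichments of 6.04 and 6.25, against 13 and 3 reads and enrichments of 2.95 and 3.25 in the 3-replicate set. TTC3 encodes a ubiquitin ligase. The start of RPS12, a small subunit ribosomal protein mRNA, had 63 IP and 7 input reads and enrichments of 3.67 and 3.83. RPL24, of the large subunit, had 21 IP and 20 input reads at its start and enrichments of 1.80 and 1.82, near the foot of its list.

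The 2 row sets described largely different RNA. They had 219 windows in common, 17.5% of the 2-replicate set and 11.0% of the 3-replicate set, so the table holds 3023 different windows. They named 788 and 725 genes, of which 281 were shared (35.7% and 38.8%), 1232 in all. In the 3-replicate set 654 windows (32.9%) were called in 3 replicates, although the labels list 2 G3BP1 replicates. The labels do not say which of the sets came from the 4 libraries.

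IP read totals inside the windows were alike, 111891 in the 2-replicate set and 106343 in the 3-replicate set, and the median window held 22 and 23 IP reads. Input differed more. The median window had 2 input reads in the 2-replicate set, where 244 windows (19.5%) had none, and 8 input reads in the 3-replicate set, where 29 windows (1.46%) had none. At least 10 input reads were behind 189 windows (15.1%) and 897 windows (45.1%). Mean enrichment had a median of 4.22 (1.64 to 12.31) in the 2-replicate set and 2.90 (1.25 to 11.06) in the 3-replicate set, and the median gap between lowest and highest replicate was 0.76 and 0.72. The enrichment scales are the authors' own and are not aligned between sets. In windows with at least 10 input reads, the deposited mean lay above the plain log2 ratio of IP to input reads by a median of 1.96 in the 2-replicate set, 1.64 in the 3-replicate set and 1.07 in the CAPRIN table.

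The shared windows were stronger in the 2-replicate set. Their median mean enrichment was 4.91 there and 3.49 in the 3-replicate set, with a median difference (3-replicate minus 2-replicate) of -1.26, ranging from -8.04 to 3.52. Of the 219 windows, 181 (82.6%) were higher in the 2-replicate set and 38 in the 3-replicate set. All replicate values of the 2-replicate set lay above those of the 3-replicate set in 126 windows, and the reverse held in 10. Over the 219 windows the means of the sets had a Spearman correlation of 0.58, a description only, since the points share genes and possibly libraries. In 115 of them the 3-replicate set had fewer IP reads than the 2-replicate set, among them 58 of the 120 called in 3 replicates, and in 30 it had fewer input reads. The read sums of the larger number of replicates were therefore not the sums of the 2-replicate set with a library added.

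**Figure D1:**
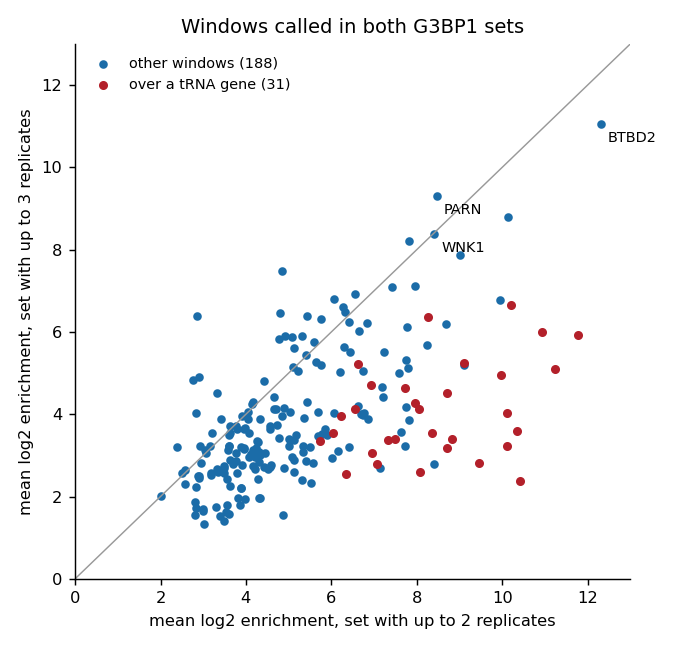
Mean log2 enrichment of each of the 219 windows listed in both sets, with the 2-replicate set on the horizontal axis, the 3-replicate set on the vertical axis and windows over tRNA genes marked. Of these windows 181 lie below the line of equal values, all 31 windows over tRNA genes among them.

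The sets differed in the transcript region their windows lay in. In the 2-replicate set 554 of 1254 windows (44.2%, exact 95% interval 41.4 to 47.0) lay in 3′ UTRs, 154 (12.3%) in coding sequence, 134 (10.7%) in 5′ UTRs, 209 (16.7%) in introns and 71 (5.66%) in exons of long noncoding RNAs. In the 3-replicate set coding sequence held 1379 of 1988 windows (69.4%, 67.3 to 71.4), 3′ UTRs 139 (6.99%), 5′ UTRs 55 (2.77%) and introns 138 (6.94%). Taken as 1 list of 3023 windows, 21.6% were in 3′ UTRs, 49.0% in coding sequence and 5.86% in 5′ UTRs. No single share therefore describes G3BP1. The 219 shared windows had 69 in introns (31.5%), 52 in coding sequence (23.7%) and 39 in 3′ UTRs (17.8%). These intervals cover counting error of windows only, and windows of 1 gene are not independent.

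Base composition and input depth moved with this split. Of the windows under a GC fraction of 0.4, 81.5% were 3′ UTR in the 2-replicate set and 28.1% in the 3-replicate set, while coding sequence made up 0.74% and 38.6%. At a GC fraction of 0.55 and above, 3′ UTRs held 16.7% and 3.52%, coding sequence 22.3% and 72.9%, and 5′ UTRs 24.2% and 3.98%. Within each of the 3 GC bands the order of the sets for 3′ UTRs and coding sequence was as in the whole lists. For 5′ UTRs it was so only at 0.55 and above, with 4 windows (1.27%) and 11 windows (1.46%) between 0.4 and 0.55 and 1 window in each set below that. In the 2-replicate set 3′ UTR windows had a median GC fraction of 0.36 and 5′ UTR windows 0.81. CAPRIN windows fell between the sets, with 43.5% in coding sequence, 34.8% in 3′ UTRs and 4.34% in 5′ UTRs. The part of input depth in the split was not tested beyond the read minimum given with the alternative settings.

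**Figure D2:**
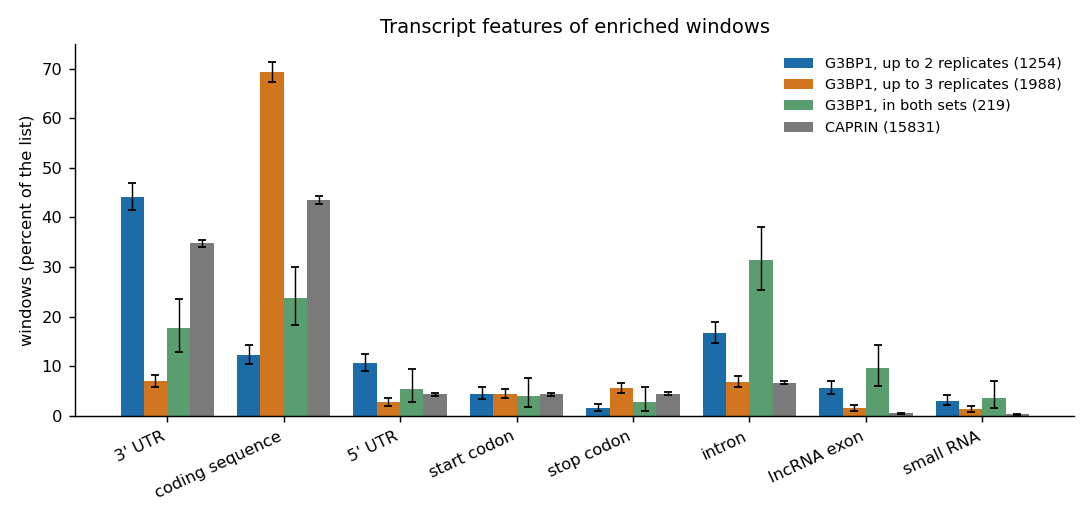
Share of windows (percent, bars, with exact 95% binomial intervals) by annotated region in the 2-replicate set, the 3-replicate set, the windows in both and the CAPRIN list. The 3′ UTR holds 44.2% of the 2-replicate set and 6.99% of the 3-replicate set, and coding sequence 12.3% and 69.4%.

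Most of the 15 strongest windows of the 2-replicate set lay over tRNA genes. tRNAs carry amino acids to the ribosome, and fragments of them are made by angiogenin in stressed cells. RefSeq places of 465 tRNA genes, given without strand, were laid over the windows. In the 2-replicate set 44 windows (3.51%) touched 37 tRNA genes of 18 amino acids, and these windows held 43271 IP reads, 38.7% of the set's IP reads, against 1.98% of its input reads. Their median mean enrichment was 7.62 (4.08 to 11.78), beside 4.22 over the whole set. They made up 11 of the 15 strongest windows and 22 of the strongest 50.

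In the 3-replicate set 33 windows (1.66%) touched 27 tRNA genes, every one of them also met by the 2-replicate set, with 6.69% of IP reads and a median enrichment of 3.96. None was among its 15 strongest windows. All 31 shared tRNA windows were higher in the 2-replicate set, by a median of 4.11, and 150 of the other 188 shared windows were, with a median difference of -1.01. CAPRIN had 30 such windows (0.19%) over 27 tRNA genes with 3.28% of IP reads, and 21 of the 37 G3BP1 tRNA genes were among them. The SNRNP200 tables had 5 and 3 such windows in whole cells and 0 in cytoplasm.

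By the rule of at least 10 input reads, the 8 genes with the strongest windows all had them over tRNA genes. The highest lay at chr11:66348071-66348170 in RP11-867G23.8, over the serine tRNA gene TRS-GCT3-1. It had 9324 IP and 21 input reads, with replicate enrichments of 10.42 and 11.44. The others were CTD-2651B20.6 over a histidine tRNA gene (8.59 and 11.36), NDUFS7 over an asparagine tRNA gene (9.03 and 9.91) and RP11-473M20.16 over a lysine tRNA gene (8.87 and 9.36). LINC00324 (7.21 and 9.30) and RP11-122G18.11 (7.10 and 8.36) followed over aspartate tRNA genes, VAC14 (6.03 and 10.13) over a glycine tRNA gene and XXbac-BPG308K3.5 (7.91 and 8.17) over an alanine tRNA gene. The gene names are those of the transcripts the windows were annotated to, so the NDUFS7 5′ UTR window, for example, is not a measure of the mRNA of that respiratory complex I subunit.

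The NDUFS7 window showed how far the sets differed. It had 2687 IP and 13 input reads in the 2-replicate set and 240 IP and 72 input reads in the 3-replicate set, where its 3 enrichments were 1.63, 3.28 and 3.56. The values of the sets did not overlap. A window without input reads, at chr17:8226200-8226298 in CTC1 over the threonine tRNA gene TRT-AGT1-2, had 1267 IP reads and enrichments of 11.60 and 11.96 in the 2-replicate set. In the 3-replicate set it had 64 IP and 2 input reads and 5.87, 5.91 and 6.02. CAPRIN had 1083 IP reads and no input read there, with 10.73 and 11.72, which overlapped the 2-replicate set.

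The strongest window of both sets was not over a tRNA gene in the table. It lay in an intron of BTBD2 at chr19:1998553-1998650, with 5441 IP reads over 1 input read and enrichments of 11.78 and 12.83 in the 2-replicate set. In the 3-replicate set it had 7468 IP over 6 input reads and 10.44, 11.14 and 11.60, all below the other set. No other table of the series listed it. The next strongest windows of the 3-replicate set were in genes of other kinds. An intron of PARN, the poly(A) deadenylase, had 442 IP and 1 input reads (8.38, 9.51 and 10.02). An intron of TTC3 had 527 IP and 4 input reads (7.46, 9.06 and 9.87). A coding window of WNK1, a kinase of ion transport, had 672 IP and 5 input reads (7.33, 8.70 and 9.12). These 3 were in the 2-replicate set too, with 7.98 and 8.95 for PARN, 9.67 and 10.59 for TTC3 and 7.76 and 9.07 for WNK1, and in no table of CAPRIN or SNRNP200. The values of the 2 sets overlapped for each of the 3 genes.

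Small nucleolar RNAs, which guide modification and cleavage of ribosomal RNA in the nucleolus, had a lower median enrichment than all windows in both sets. In the 2-replicate set 37 windows over snoRNA genes held 13.6% of IP reads and 55.1% of input reads, with a median enrichment of 2.64 beside 4.22 over all. SNORD3D, a U3 copy, had 2827 IP and 2333 input reads and enrichments of 2.10 and 2.38. SNORD118, the U8 snoRNA, had 1305 and 462 reads with 2.64 and 4.46. SNORD17 had 594 and 139 reads with 3.45 and 5.17 in the 2-replicate set, and 1222 and 1210 reads with 1.78, 1.89 and 2.21 in the 3-replicate set. The U3 copies are near-identical, so reads may be divided among SNORD3A, SNORD3B-1 and SNORD3D in ways the table does not show. In the 3-replicate set 13 snoRNA windows held 2.31% of IP reads and 4.31% of input reads, at a median of 2.06 beside 2.90 over all.

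Ribosomal RNA was present at the lower edge of enrichment. Windows over rRNA genes numbered 11 in the 2-replicate set (2.62% of IP reads) and 3 in the 3-replicate set (5.72%). Beside these, the mitochondrial large rRNA MT-RNR2 had 3574 IP and 4824 input reads and enrichments of 1.30 and 1.69 in the 3-replicate set. An intronic window of FAM234B was as deep there, with 3633 IP and 6187 input reads and enrichments of 1.22 and 1.44, and CAPRIN listed the same window at 1.22 and 1.34. In the 2-replicate set FAM234B stood at 2.60 and 3.46 with 3874 IP and 2042 input reads, above both.

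Most genes had a single window, 744 of 1232 (60.4%). The 12 genes with the most windows were NORAD and 11 coding mRNAs, and the 3-replicate set supplied most windows of the latter. PRKDC, the DNA-dependent protein kinase, had 75 windows, 10 in the 2-replicate set and 71 in the other. DYNC1H1, the cytoplasmic dynein heavy chain, had 47 and PRPF8, a core splicing factor, had 43, all in the 3-replicate set, as were 25 each of EEF2, the elongation factor that moves the ribosome, and UBA1, the ubiquitin-activating enzyme, and 21 of PHGDH, the first enzyme of serine synthesis. PARP1 had 26, TRIM28 21, FASN 20, CTNNB1 20 and MCM2 19. Of the 71 PRKDC windows of the 3-replicate set 64 were coding, with a median enrichment of 3.09 and a highest of 4.56, while 6 of its 10 in the 2-replicate set were in the 3′ UTR.

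MCM2, a subunit of the replicative helicase, shows a coding window found in every set. At chr3:127616868-127616950 the 2-replicate set had 122 IP reads over 1 input read with 7.70 and 7.83, and the 3-replicate set 61 over 1 with 5.71, 6.06 and 6.59. CAPRIN had 48 IP reads over none with 6.02 and 7.05. The 2-replicate values lay above both other groups, which overlapped each other.

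The 2-replicate set was led by a noncoding RNA. NORAD, a cytoplasmic long noncoding RNA known for binding the RNA-binding protein PUM2 at repeated sites, had 21 windows there, with 782 IP and 80 input reads and mean enrichments of 3.07 to 6.89 (median 4.99). They were spread from base 41 to base 4655 of its 5343 bases. The strongest, at chr20:36047582-36047679, had 86 IP and 2 input reads and enrichments of 6.60 and 7.18. The 3-replicate set had 1 NORAD window, with 14 IP and 7 input reads (2.57 and 3.05), and CAPRIN had 1, with 9 IP and 1 input reads (3.33 and 4.56). That CAPRIN window, at chr20:36049742-36049839, had 42 IP reads over 1 input read and a mean of 6.13 in the 2-replicate set. NORAD was not confined to G3BP1, since cytoplasmic SNRNP200 listed 28 windows without stress and 20 with it.

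**Figure D3:**
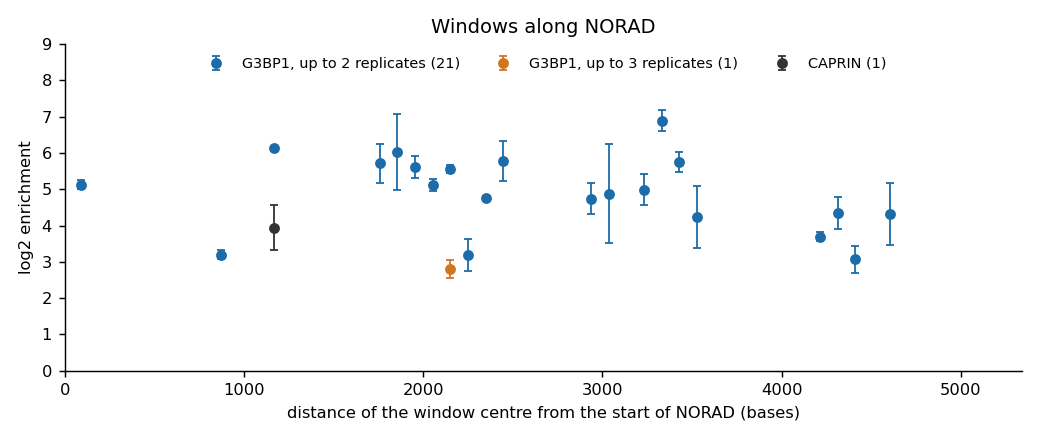
Log2 enrichment along NORAD (bases from its start) for the 2-replicate set, the 3-replicate set and CAPRIN, with points for the means and vertical lines from the lowest to the highest replicate. The 21 windows of the 2-replicate set lie between 3.07 and 6.89, and the other lists have 1 window each.

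After NORAD, the 2-replicate set was led by LINC01002, by XIST and by 3′ UTRs. LINC01002, a long noncoding RNA, had 18 windows (600 IP and 44 input reads, mean enrichment 2.99 to 4.99) and no window in the 3-replicate set or CAPRIN. XIST had 11 windows, none of them coding or in a 3′ UTR (412 IP and 276 input reads, mean enrichment 1.94 to 3.85). The 3-replicate set had 6 XIST windows and CAPRIN 12. All 10 windows of LBR, the lamin B receptor, and all 9 of FUBP1, a regulator of MYC, were in the 3′ UTR, as were all 9 of TNPO1, a nuclear import receptor, and 8 of 10 of LMNB2. LBR had 262 IP and 41 input reads and FUBP1 270 and 61. Neither had a window in the 3-replicate set, and CAPRIN had 14 windows for LBR and 5 for FUBP1. PUM2 had 6 windows in the 2-replicate set, all in the 3′ UTR. The strongest had 33 IP reads over 1 input read (5.51 and 6.50), and CAPRIN had 8 over none there (4.22 and 4.54), below both.

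Gene groups were read against the 9792 genes with a window in any table. A G3BP1 window was present for 12.6% of them in either set, 8.05% in the 2-replicate set and 7.4% in the 3-replicate set, and a CAPRIN window for 44.6%. mRNA levels were not measured, and their part in these counts was not tested.

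Replication-dependent histone mRNAs, which end in a stem-loop without a poly(A) tail, were listed often. Of 51 members 43 (84.3%) had a window in the 3-replicate set and 6 of those also in the 2-replicate set, while CAPRIN had 48 (94.1%). H3C2 had 7 windows with 1690 IP and 648 input reads and H2AC18 had 6 with 919 and 376. H4C3 had its strongest window in coding sequence, with 404 IP and 23 input reads and enrichments of 5.44, 5.82 and 6.21. In the 2-replicate set that window had 26 and 2 reads with 4.76 and 4.80, below the other set. Median enrichment of histone windows was 2.66 in the 3-replicate set, beside 2.90 over all. Histone genes are near-identical copies, so the table may divide their reads.

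mRNAs of the translation machinery followed. Cytosolic ribosomal proteins had 46 of 83 members (55.4%), 22 in the 2-replicate and 38 in the 3-replicate set, at median enrichments of 3.32 and 2.38, both below the medians of their sets. RPS4X had 6 windows with 407 IP and 345 input reads, all in the 3-replicate set, and RPLP0 had 5 there and 1 in the 2-replicate set. Of 110 windows in this group 63 were coding and 15 in the 5′ UTR. Translation factors had 26 of 73 (35.6%). EEF2 led with 2728 IP and 1538 input reads, and its strongest window stood at 2.78, 2.79 and 3.29. EEF1G, of the elongation factor that delivers tRNAs, had 9 windows in the 3-replicate set and 2 in the other. Mitochondrial ribosomal proteins had 4 of 78 (5.13%), below the background of 12.6%, while CAPRIN had 47 (60.3%).

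Aminoacyl-tRNA synthetases, which load tRNAs, had 13 of 35 members (37.1%), all in the 3-replicate set and 2 also in the 2-replicate set. AARS1 had 14 windows (325 IP and 171 input reads), and MARS1, EPRS1 and SARS1 had 9 each. The strongest of AARS1 had 29 IP and 3 input reads with 4.43 and 4.62. Of 72 windows in this group 60 were coding. Targets of the amino acid starvation response had 7 of 11 members (63.6%), none in the 2-replicate set. ASNS, asparagine synthetase, had 10 windows with 191 IP and 109 input reads against 4 for CAPRIN. PHGDH had 21, with 3.76 as its highest mean, and PSAT1 and SHMT2, also of serine and glycine synthesis, had 7 each.

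mRNAs of stress granule proteins had 18 of 38 members (47.4%), 15 in the 2-replicate and 12 in the 3-replicate set, and CAPRIN had 31 (81.6%). Their 77 windows were divided between coding sequence (32) and 3′ UTR (36). EIF4G1, the scaffold of the cap-binding complex, had 7 windows in the 2-replicate set and 8 in the 3-replicate set. PRRC2A had 6 and 2 and PRRC2B 4 and 4. SR and hnRNP proteins, which regulate splicing, had 25 of 40 (62.5%). PTBP1 had 4 windows in the 2-replicate set, all in the 3′ UTR, and 11 in the other, 10 of them coding. HNRNPA2B1 had 6 in the 2-replicate set, all in the 3′ UTR, the strongest with 42 IP and 3 input reads (4.99 and 5.82), and the 3-replicate set gave that window 35 and 18 reads (2.75 and 2.99), below it.

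Among the other groups, actin and tubulin mRNAs had 7 of 11 (63.6%), with 44 of 59 windows coding, and glycolytic enzymes had 11 of 17 (64.7%), with 10 of them in the 3-replicate set and 3 in the 2-replicate set. MCM helicase and replication genes had 12 of 34 (35.3%), nuclear transport 19 of 48 (39.6%), the CCT chaperonin 5 of 8 (62.5%), the proteasome 8 of 43 (18.6%) and oxidative phosphorylation 17 of 79 (21.5%). Cholesterol synthesis had 4 of 13 (30.8%) and solute carriers 13 of 128 (10.2%). Small nuclear, nucleolar and cytoplasmic RNAs had 46 of 115 members (40.0%) for G3BP1 and 24 (20.9%) for CAPRIN, and 38 of the 46 had no CAPRIN window. Members entered this group only through a window in some table. RNAs listed for G3BP1 alone, such as SNORD3D and SNORD17, therefore raise its share by construction, and these counts do not compare the proteins. The 14 short-lived stress regulators had 6. FOS, an immediate early transcription factor, had 31 IP reads over no input read (mean enrichment 5.74) in the 3-replicate set and no CAPRIN window.

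mRNAs of the immunoprecipitated proteins were all listed. G3BP1 had 1 window on its own mRNA, in the 3′ UTR at chr5:151806726-151806824, with 16 IP and 4 input reads and enrichments of 3.53 and 4.14 in the 2-replicate set. CAPRIN1 had 3 coding windows in the 3-replicate set, the strongest with 12 IP and 3 input reads (3.14 and 3.68). SNRNP200, a splicing helicase, had 18 coding windows there, the strongest with 56 IP and 9 input reads (3.96, 4.03 and 4.37).

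Overlap with the other tables depended on the set. The 2-replicate set shared 551 windows (43.9%) with CAPRIN and the 3-replicate set 1267 (63.7%). By gene, 952 of 1232 (77.3%) had a CAPRIN window, which is 21.8% of the 4363 CAPRIN genes. Whole-cell SNRNP200 without stress shared 85 windows (6.78%) with the 2-replicate set and 981 (49.3%) with the 3-replicate set, and its table is far longer, with 182066 windows. Cytoplasmic SNRNP200 without stress shared 239 (19.1%) and 218 (11.0%). No other table listed 761 of the 3023 windows (25.2%), 525 of the 2-replicate set (41.9%) and 314 of the 3-replicate set (15.8%). No other table named 128 genes (10.4% of 1232), but a window can carry several gene names. CTD-2515O10.6, for example, had the read sums of the ALDOA windows in both sets, and CAPRIN listed ALDOA. CH507-513H4.6 had 9 windows in the 2-replicate set (mean enrichment 1.64 to 3.29), the range of the windows over rRNA genes there. CCDC200 had 8 in the 3-replicate set (1.25 to 2.82), with 2332 IP and 2774 input reads. Its lowest mean was also the lowest of the windows over small nuclear RNA genes.

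To ask where the partner proteins differ, the 2 replicate enrichments of the 2-replicate set were compared with those of CAPRIN in 1 shared window per gene, the one with the most G3BP1 IP reads, with limma's moderated test. Of 368 windows 77 (20.9%) were higher for G3BP1 and 42 (11.4%) lower at an adjusted p of 0.05, and 153 had an unadjusted p under 0.05. The replicates did not overlap in 164 windows with G3BP1 higher (44.6%) and 85 with CAPRIN higher (23.1%), and they overlapped in 119. The tables have GC classes and enrichment offsets of their own, so they were treated as normalised separately, and a level set across them holds only on these scales. The median difference was 0.48, and with it removed 36 were higher and 52 lower. Choosing the window by the reads of G3BP1 can tilt the contrast toward G3BP1. With all 551 shared windows tested, 84 were higher and 54 lower, at a median difference of 0.41. With the 3-replicate set in place of the 2-replicate set, 6 of 410 were higher and 148 lower, so the direction of the balance rests on the set.

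By region, 5′ UTR windows had 13 of 32 higher and 0 lower, with a median difference of 1.50 and a median GC fraction of 0.82. The offset of the deposited mean above the plain read ratio varied with GC. In the highest GC class its median was 0.82 in the 2-replicate set and 0.14 for CAPRIN, and in the lowest class 2.02 and 1.79. The part of this offset in the 5′ UTR difference was not tested. Coding windows had 8 higher and 12 lower of 60, and 3′ UTR windows 27 and 21 of 162. Windows over tRNA genes had 8 higher and 0 lower of 14, at a median of 2.63, and long noncoding exons 6 and 0 of 10. These groups overlap and are not separate classes. Exon windows of CTD-2651B20.6, CTD-2651B20.7, RP11-473M20.16, LINC02739, LINC00324, AC084082.3 and LINC01783 that both lists hold lay over tRNA genes. Histone mRNAs had 0 higher and 6 lower of 6, at a median of -3.18, actin and tubulin 0 and 4 of 5, stress granule proteins 2 and 1 of 11, and ribosomal proteins 3 and 2 of 14. Whether regions differ from each other in this contrast was not tested.

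The largest excess of G3BP1 was in an intron of FBXO31 over the methionine tRNA gene TRM-CAT6-1. G3BP1 had 519 IP reads over none (10.32 and 10.50) and CAPRIN 181 over 39 (3.32 and 4.09), a difference of 6.70 (SE 0.53, limma adjusted p = 0.00035). Outside tRNA genes, the 3′ UTR of CENPB, a centromere protein, had 5.93 and 7.79 against 2.22 and 3.19, a difference of 4.15 (SE 0.71, limma adjusted p = 0.0060). The 3′ UTR of CELF1, itself an RNA-binding protein, had 6.53 and 6.70 against 2.37 and 2.56. RN7SKP176, a copy of the 7SK RNA, had 4.90 and 6.08 against 1.32 and 1.36. DIPK2A, HSPA4, MRTO4 and ZNF275, also outside tRNA genes, and LINC01783 and AC084082.3 completed the 10 largest. LINC01783, with a difference of 3.50, lay over the tRNA gene TRE-TTC4-1. AC084082.3, with 5.36, lay over TRY-GTA5-1 and came next after FBXO31. In ZNF275, a 5′ UTR with a GC fraction of 0.87, G3BP1 had 8.53 and 9.68 and CAPRIN 4.82 and 6.22. Replicates of the proteins did not overlap in any of the 10, which were chosen by these same values. With the 3-replicate set, 3 of the 10 windows were listed and none passed the threshold, with differences of 0.56 for AC084082.3, 0.99 for LINC01783 and -0.32 for ZNF275 (limma adjusted p = 0.45, 0.14 and 0.71).

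The largest excess of CAPRIN was in the 3′ UTR of H2BC21, a histone H2B gene, where CAPRIN had 415 IP reads over none (9.35 and 9.51) and G3BP1 14 over 1 (3.46 and 4.12). The difference was -5.64 (SE 0.52, limma adjusted p = 0.00060). An intron of FTO, an RNA demethylase, had 9.62 and 11.56 for CAPRIN and 5.83 and 6.77 for G3BP1, and an intron of CYTH1 had 10.86 and 11.73 against 6.63 and 7.64. A coding window of TUBA1B, an alpha tubulin, had 9.26 and 9.46 against 5.21 and 5.46. H4C3, H2AC4 and H3C10, histones again, RNF139, FKBP4 and ECHS1 completed the 10, from -3.93 for H4C3 to -2.97 for ECHS1. For these genes too, chosen in the same way, the replicates did not overlap, with CAPRIN higher in each. With the 3-replicate set, each gene was taken in its shared window with the most IP reads there, which need not be the window compared above. For TUBA1B, H3C10 and H2BC21 it was another window, while H4C3 and FTO kept theirs. On that basis TUBA1B (-2.45), H4C3 (-2.89), H3C10 (-2.69), FKBP4 (-2.92), H2AC4 (-3.18) and FTO (-4.96) were again lower and past the threshold. H2BC21 was at -0.96 (limma adjusted p = 0.16), which is no second reading of its 3′ UTR window above.

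**Figure D4:**
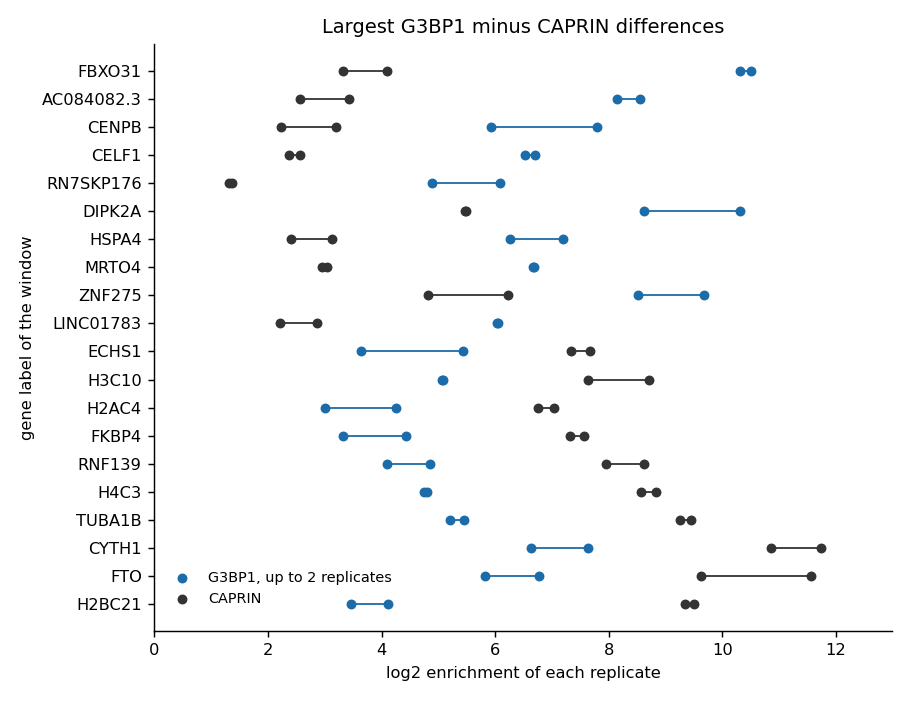
Replicate log2 enrichments (points) of G3BP1, from the 2-replicate set, and CAPRIN in the shared window of the 10 genes with the largest positive and the 10 with the largest negative difference. The points of the proteins do not overlap in any of the 20 genes, which were chosen by these same values. The genes run from FBXO31, with G3BP1 at 10.32 and 10.50, to H2BC21, with G3BP1 at 3.46 and 4.12.

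Markers of the labelled cells were also looked up. Of 8 HEK293 markers 2 had a G3BP1 window, VIM with 10 windows and KRT8 with 1, and 5 were in any table. The 2 among these 5 are no smaller a share than the background of 12.6%. So few genes do not show a difference from it. None of 6 markers of other cell types was in any table. A window shows contact and not the level of an RNA, so absence from the table says nothing on expression.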

How the data were processed

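Input and IP eCLIP libraries of G3BP1 were read from the authors' deposited table of enriched windows. The submitters' processing notes name fastp 0.11.5, STAR 2.7.6 and the build hg38, without their roles, and the sources used here name no window caller. Per window, the authors deposited a count of input and of IP reads summed over replicates, a GC fraction, a log2 enrichment per lowest and highest replicate, and the highest q-value over replicates (up to 0.20 in the G3BP1 table). Each of the 6 tables has its own GC classes, so the tables were treated as normalised separately by the authors. No library totals were used here, so depth is known only inside windows.

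Entries were divided into the row sets by their GC classes, and windows were matched between tables by coordinates and strand. Shares carry exact Clopper-Pearson 95% intervals, which cover counting error only. The G3BP1 and CAPRIN replicates were compared with limma 3.58.1 in R 4.3.3, two-sided, with Benjamini-Hochberg adjustment over all 368 windows tested. The scripts were tested on simulated data. There the limma test called 5% of planted log2 differences of 1, 40% of 2, 80% of 3 and 95% of 5, with 20 genes each. It called 1.04% of the 288 genes without a planted difference. A window that was not called is therefore not shown to be alike between the proteins. Genes named are the 12 with the most windows, the 8 with the strongest window at 10 or more input reads, the 10 largest differences each way, up to 4 members per gene list with the most windows, and others that were chosen after their values were seen. The members and gene lists were chosen with earlier results of these data known. Alternatives were each set alone, a q-value under 0.05, at least 20 IP and 10 input reads, 1 window per gene, weighting by IP reads, and other fits.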

Additional observations from a re-analysis of the deposited data

How the results depend on the processing

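The share of windows in 3′ UTRs (21.6% over both sets) was 44.2% in the 2-replicate set, 6.99% in the 3-replicate set, 27.4% at a q-value under 0.05, 10.1% at a minimum of 20 IP and 10 input reads, 8.91% weighted by IP reads and 10.6% so weighted without tRNA windows. Coding sequence (49.0%) gave 12.3%, 69.4%, 33.3%, 56.1%, 26.7% and 34.8% under the same settings and 33.1% with 1 window per gene. 5′ UTRs (5.86%) gave 10.7% and 2.77% by set and 7.71% with 1 window per gene. Genes with a window (1232) numbered 788 and 725 by set, 743 at the stricter q-value and 399 with the read minimum. The share of them with a CAPRIN window (77.3%) was 73.4%, 83.2%, 73.9% and 83.2%. Genes higher for G3BP1 than CAPRIN (77) numbered 47 at the stricter q-value, 16 with the read minimum, 36 with the median removed and 6 with the 3-replicate set, and genes lower (42) numbered 22, 5, 52 and 148. Fewer windows were tested under the first of these, 222 and 64 of 368. For the other moves the cause was not tested. The lower enrichment of the 3-replicate set in shared windows kept its direction in all 4 alternatives. Settings without tRNA windows were chosen after seeing the data. No paired analysis was possible because the table gives the lowest and highest replicate without numbers, and for the same reason no replicate could be left out. Only 15.1% of windows of the 2-replicate set had 10 or more input reads, which limits the precision of their enrichment.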
